A study of Mus musculus with 2 samples.

Results

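Cd34, Podxl, Emcn, Cd300lg and Cd164 encode membrane sialomucins, and their transcripts were followed through the endothelium of mouse lymph nodes. The members were chosen by name as membrane-bound sialomucins that can carry ligands of L-selectin, leaving out Glycam1 and Madcam1, and all 5 were present among the 32285 genes counted. Endothelial cells had been sorted from peripheral and mesenteric nodes of mice labelled WT (wild-type) or Xbp1-KO, and every pool, WT included, carries the label tamoxifen. XBP1 is a transcription factor that switches on genes of protein folding and secretion when the endoplasmic reticulum is overloaded. Each of 2 droplet libraries held 4 hashtagged pools, 1 for each pairing of genotype (WT or Xbp1-KO) with tissue (peripheral or mesenteric), so each group has n = 2 pools. The labels give neither the Cre line or cell type in which Xbp1 was deleted, nor the age, strain or number of mice in a pool. They do not say that the pools of the 2 libraries came from separate mice, so p-values measure only the spread between these pools.

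A sialomucin is a protein whose extracellular stretch is densely covered with O-linked glycans that end in sialic acid. On high endothelial venules, the vessels through which lymphocytes enter lymph nodes, such stretches can be decorated with sulfated sialyl Lewis X, the sugar that L-selectin on lymphocytes binds. The protein is then only the scaffold, and the glycan-modifying enzymes of the cell decide whether the ligand is made, so transcript levels say nothing about ligand. CD34 and podocalyxin (Podxl) are related in sequence and hold short cytoplasmic tails that bind adaptor proteins. Endomucin (Emcn) is a sialomucin of capillary and venous endothelium, nepmucin (Cd300lg) joins an immunoglobulin-like domain to a mucin-like one, and endolyn (Cd164) resides largely in endosomes and lysosomes of many cell types.

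Promoter sequences are shown for the 3 of 5 members that matched the RefSeq table; they set Cd34 and Emcn, which were concentrated in blood endothelium, beside Cd164, whose level was highest in lymphatic-like cells. Each is the RefSeq promoter window of 300 bases on GRCm38.p6, from 250 bases before to 50 bases after the start of the gene, on the plus strand, with each CG pair in capitals. Cd34 lies at chr1:194938571-194938870, Emcn at chr3:137340828-137341127 and Cd164 at chr10:41519250-41519549.
Cd34: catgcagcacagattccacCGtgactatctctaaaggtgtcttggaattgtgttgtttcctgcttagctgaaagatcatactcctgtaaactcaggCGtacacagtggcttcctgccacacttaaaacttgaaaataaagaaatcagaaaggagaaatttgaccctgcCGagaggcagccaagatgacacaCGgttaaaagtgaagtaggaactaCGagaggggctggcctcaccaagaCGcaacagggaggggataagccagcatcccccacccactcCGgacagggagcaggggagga
Emcn: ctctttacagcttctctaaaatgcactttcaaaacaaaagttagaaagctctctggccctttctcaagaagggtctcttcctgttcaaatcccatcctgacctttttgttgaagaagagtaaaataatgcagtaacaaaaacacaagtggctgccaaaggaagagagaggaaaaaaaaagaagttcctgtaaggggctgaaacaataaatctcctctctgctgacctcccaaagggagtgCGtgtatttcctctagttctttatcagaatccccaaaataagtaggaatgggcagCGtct
Cd164: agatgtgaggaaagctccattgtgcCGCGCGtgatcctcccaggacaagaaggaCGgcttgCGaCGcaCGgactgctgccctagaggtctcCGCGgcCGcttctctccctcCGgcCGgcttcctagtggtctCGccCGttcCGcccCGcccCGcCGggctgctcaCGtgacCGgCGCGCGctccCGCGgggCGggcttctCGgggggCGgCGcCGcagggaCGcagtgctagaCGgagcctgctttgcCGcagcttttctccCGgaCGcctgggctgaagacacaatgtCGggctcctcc
The Cd164 window holds 36 CG pairs, more than 93.8% of the 32851 promoters of that length in the same table, and its GC content is 70%. The Cd34 window holds 7 CG pairs, which is the median of the table, and the Emcn window holds 2, more than only 14.1% of promoters. The letters TGACGTGG, a site described for XBP1, and the endoplasmic reticulum stress element (CCAAT, any 9 bases, then CCACG) were searched on both strands. Neither was in any of the 3 windows, and 0.676% and 0.119% of all promoters hold them, respectively. Podxl and Cd300lg had no entry in that table.

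In GENCODE M21 on GRCm38, Cd34 (ENSMUSG00000016494) spans chr1:194938819-194961279 on the plus strand with 8 exons in its longest coding transcript. Podxl (ENSMUSG00000025608) spans chr6:31519488-31563981 on the minus strand with 8 exons, and Emcn (ENSMUSG00000054690) spans chr3:137341067-137432185 on the plus strand with 12. Cd300lg (ENSMUSG00000017309) spans chr11:102041509-102055620 with 8 exons and Cd164 (ENSMUSG00000019818) spans chr10:41519414-41531048 with 6, both on the plus strand. An antisense gene, Gm16897, overlaps Cd34 on the opposite strand, and no annotated gene overlaps the other 4.

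Library 1 held 33024170 UMIs (molecular barcodes, each counting 1 captured transcript) in 7709 cell barcodes, and library 2 held 14744778 in 2903; only 3 barcodes occurred in both. After filtering, 9275 cells remained, 409 to 2293 per pool. Clusters were named by their markers, and each name stands for cells that resemble that type. High endothelial-like cells (HEC, 505 cells), led by Ccl21a, Glycam1, Fut7 and Chst4, were kept apart from all other blood endothelial-like cells (other BEC, 4811 cells) and from lymphatic-like cells (LEC, 3701 cells). Another 64 dividing and 194 non-endothelial cells were left out of these classes. The 5 members were removed from the genes used for clustering and are in no marker set. In Xbp1-KO pools, Xbp1 itself stood at 65.9 and 79.1 CPM (counts per 1000000 UMIs) over all peripheral cells, against 140 and 129 in WT. In mesenteric cells it stood at 132 and 141 CPM against 206 and 260, so it was lower in 4 of 4 pairs but still detected; a 3′ tag need not lie in the deleted stretch, which the labels do not give. The sex of the mice crossed genotype between libraries: in library 1 the Xbp1-KO pools carried Xist (in 82.5% and 73.1% of cells) and in library 2 the WT pools did (85.4% and 76.8%). The HEC sums were uneven: their 7 high endothelial markers added up to 7386 CPM in the WT peripheral pool (library 1) and 9316 in the Xbp1-KO peripheral pool (library 2), against 43094 to 183809 CPM in the other 6 sums. With those 2 sums left out, an alternative added after the data were seen, no member difference in HEC passed.

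Across the 3 classes, Cd34, Podxl, Emcn and Cd300lg were transcripts of blood endothelium, and Cd164 was highest in LEC. In HEC, the sums of Cd34 and Cd300lg overlapped those of other BEC, whereas Podxl and Emcn were lower without overlap. Classes are compared here as a description, with no test, because they come from clustering the same cells; a difference is called non-overlapping when all 8 library and pool sums of one class lie beyond all 8 of the other. Of all genes with a mean of at least 20 CPM in either class, 13.9% were lower and 3.09% higher without overlap in HEC than in other BEC. The corresponding shares were 11.2% lower and 19.1% higher in LEC than in other BEC, and 4.38% higher and 21.5% lower in HEC than in LEC. Against these backgrounds, 2 of the 5 members (Podxl and Emcn) were lower without overlap in HEC than in other BEC and none was higher. Between LEC and other BEC, 4 members were lower in LEC and Cd164 was higher. Between HEC and LEC, Cd34 and Cd300lg were higher in HEC and Podxl was lower.

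Cd34 had 684 ± 69.8 CPM in other BEC (SD, n = 8 sums), 544 ± 110 in HEC and 10.7 ± 4.2 in LEC. Its sums ran from 595 to 839 CPM in other BEC (median 668), from 420 to 724 in HEC (median 518) and from 6.0 to 16.6 in LEC (median 9.2). The ranges of HEC and other BEC therefore overlapped, with means 1.26-fold apart and HEC the lower in 7 of 8 pools, whereas the mean of other BEC was 64.2-fold that of LEC. In LEC the whole class held 174 Cd34 UMIs among 20034630.

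Podxl, which encodes the relative of CD34 best known from kidney podocytes, separated HEC from other blood endothelium most widely of the members. It had 548 ± 38.8 CPM in other BEC (491 to 596, median 549), 145 ± 19.98 in LEC (117 to 176, median 148) and 55.1 ± 33.0 in HEC (21.3 to 114, median 38.5). The HEC mean was 9.93-fold below that of other BEC and 2.64-fold below that of LEC, in both cases without overlap of the sums. The HEC values rest on 158 UMIs over the 8 sums, and the mean was 41.4 ± 22.1 CPM (n = 6) without the 2 sums low in high endothelial markers.

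Emcn was likewise lower in HEC than in other BEC without overlap, at 271 ± 104 CPM (144 to 501, median 249) against 664 ± 100 (531 to 825, median 676), a 2.45-fold difference of means. Without the same 2 sums it was 228 ± 45.8 CPM in HEC. In LEC it had 69.4 ± 53.5 CPM, and 7 of the 8 sums lay at or below 66.1 CPM while 1, WT mesenteric in library 2, reached 199. Cd300lg had 660 ± 117 CPM in other BEC (484 to 890), 466 ± 191 in HEC (183 to 776) and 107 ± 20.7 in LEC (84.3 to 145). Its HEC sums overlapped those of other BEC, although HEC held the lower level in 8 of 8 pools, and they lay 4.36-fold above LEC, by the means, without overlap. Without the same 2 sums Cd300lg had 405 ± 163 CPM in HEC (183 to 666), still overlapping other BEC.

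Cd164 showed the opposite order. It had 148 ± 27.2 CPM in LEC (97.3 to 184), 80.0 ± 6.08 in other BEC (72.7 to 88.2) and 71.3 ± 15.9 in HEC (49.1 to 98.6). The LEC mean was 1.84-fold that of other BEC without overlap, while the lowest LEC sum fell within the HEC range.

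**Figure D1:**
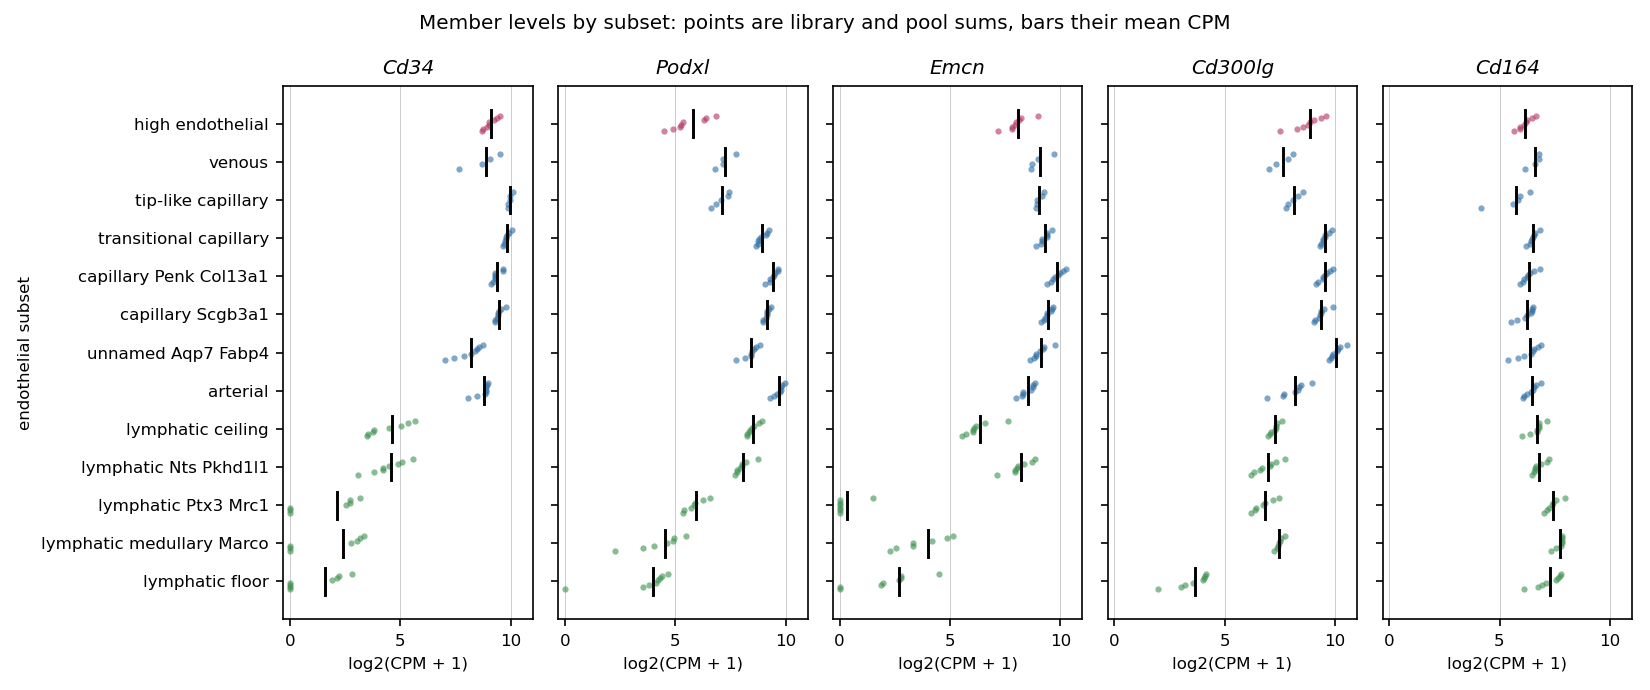
Level of each member in 13 endothelial-like subsets, on an axis of log2(CPM + 1); points are library and pool sums of at least 10 cells, black bars are the mean CPM, and colours mark high endothelial-like (red), other blood endothelial-like (blue) and lymphatic-like (green) subsets. Cd34 falls by more than an order of magnitude from blood to lymphatic subsets, Podxl is low in high endothelial-like cells and high in arterial and ceiling cells, and Cd164 changes least.

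Finer subsets showed where in the vascular tree each scaffold was highest. Sums of at least 10 cells were used, which leaves 8 per subset except for tip-like (5), venous (4), Marco (7) and Ptx3 (7) cells. Names stand for markers: tip-like cells carry Apln, transitional cells Aqp1, arterial cells Gja5 and Stmn2, venous cells Selp and Vwf, and a cluster led by Aqp7 and Fabp4 had no fixed name. Among lymphatic subsets, ceiling cells carry Ackr4 and line the outer wall of the subcapsular sinus, floor cells carry Coch and Ccl20, and the others are named for Marco, Ptx3 with Mrc1, and Nts with Pkhd1l1.

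Cd34 was highest in tip-like capillary cells (989 ± 68.5 CPM, 924 to 1100, n = 5), then in transitional capillary cells (902 ± 81.9, 807 to 1064, n = 8). The tip-like level was the higher in 5 of 5 pools holding both subsets, although the ranges overlapped. The Scgb3a1 and Penk/Col13a1 capillary subsets followed at 700 ± 81.2 and 659 ± 96.6 CPM, and did not differ beyond their spread. HEC, venous and arterial cells (544 ± 110, 466 ± 218 and 436 ± 80.7 CPM) also overlapped, and the Aqp7/Fabp4 cluster was lowest among blood subsets at 290 ± 103. Every lymphatic subset lay below all of these without overlap, from 23.6 ± 15.2 CPM in ceiling cells to 2.0 ± 2.3 in floor cells, where 1264 cells gave 21 Cd34 UMIs.

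Podxl was highest in arterial cells, and among lymphatic subsets it was highest in ceiling cells. Arterial cells held 836 ± 118 CPM (632 to 990), higher than Penk/Col13a1 capillaries (693 ± 93.5) in 7 of 8 pools, with the other capillaries at 567 ± 51.5 (Scgb3a1) and 489 ± 77.8 (transitional). Ceiling cells of the lymphatic sinus came next at 365 ± 68.8 CPM (299.7 to 492, n = 8) and did not differ beyond spread from the Aqp7/Fabp4 cluster (349 ± 73.8). Nts/Pkhd1l1 cells, also lymphatic, followed at 268 ± 71.2 CPM (205 to 430), lower than the Aqp7/Fabp4 cluster in 7 of 8 pools. Floor cells, the inner lining of the same sinus, held 15.2 ± 7.4 CPM, and Marco cells 22.2 ± 13.3. Within blood endothelium, the low end was formed by venous cells (154 ± 44.5 CPM), tip-like cells (137 ± 31.9) and HEC (55.1 ± 33.0).

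Emcn was highest in Penk/Col13a1 capillaries (924 ± 184 CPM, 676 to 1204), above Scgb3a1 capillaries (690 ± 87.8) in 8 of 8 pools. It then ran through transitional, Aqp7/Fabp4, venous and tip-like cells (623 ± 95.3, 549 ± 147, 542 ± 198 and 528 ± 61.6 CPM) with overlapping ranges. Arterial cells, at 367 ± 77.6 CPM, lay below tip-like cells without overlap. The Nts/Pkhd1l1 lymphatic subset held 296 ± 106 CPM (141 to 467) and did not differ beyond spread from HEC at 271 ± 104. The other lymphatic subsets ranged from 82.3 ± 48.6 CPM in ceiling cells down to Ptx3/Mrc1 cells, where 282 cells gave 1 Emcn UMI.

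Cd300lg peaked in the Aqp7/Fabp4 cluster at 1061 ± 211 CPM (832 to 1492), which was above transitional capillaries (742 ± 91.4) in 8 of 8 pools. Penk/Col13a1 and Scgb3a1 capillaries held 740 ± 132 and 661 ± 135 CPM, and the latter exceeded HEC (466 ± 191) in 8 of 8 pools. Arterial, tip-like and venous cells held 288 ± 113, 284 ± 64.3 and 196 ± 65.5 CPM. Of the lymphatic subsets, Marco cells were highest at 176 ± 19.3 CPM, and floor cells, at 11.7 ± 5.2, lay below all others without overlap.

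Cd164 varied least, from 52.4 ± 23.7 CPM in tip-like cells to 210 ± 24.8 in Marco cells (162 to 228). After Marco cells came Ptx3/Mrc1 cells (171 ± 39.7) and floor cells (157 ± 56.7), which overlapped each other. The 7 remaining blood subsets, HEC included, lay between 71.3 and 96.5 CPM, with all neighbours in that order overlapping.

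Members were also counted cell by cell at a common depth of 2000 UMIs per cell, since HEC had a median of 7413 UMIs, LEC 5255 and other BEC 2644. This left out 9 HEC, 105 LEC and 1330 other BEC. Other BEC held a UMI of 2.76 of the 5 members on average, HEC 1.70 and LEC 0.707. At least 3 members were detected together in 60.7% of other BEC, 22.0% of HEC and 1.84% of LEC. Cd34 was detected in 69.2% of other BEC and 60.5% of HEC but 1.59% of LEC, against unthinned shares of 73.3%, 93.1% and 3.68%. Podxl was detected in 58.7% of other BEC, 19.9% of LEC and 8.27% of HEC, against 66.6%, 33.5% and 24.4% unthinned.

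Emcn and Cd300lg were detected in 37.7% and 52.6% of HEC and in 67.7% and 65.8% of other BEC at that depth; the unthinned shares were 74.1% and 84.4% of HEC and 73.9% and 72.8% of other BEC. Cd164 was detected in 24.8% of LEC, 14.2% of other BEC and 10.5% of HEC, against 52.0%, 20.2% and 41.4% unthinned. Free RNA gives some UMIs in cells that do not express a gene. The lymphatic floor cells, with a median of 5359 UMIs, showed Cd34 in 0.643%, Podxl in 3.62%, Emcn in 0.804% and Cd300lg in 1.69% of 1244 cells. A mixed mural and fibroblastic cluster led by Acta2, Col3a1 and Col1a2 (109 cells, median 3918 UMIs) showed Cd34 in 17.4% and Podxl in 16.5%, and the 33 leukocyte-like cells (median 2895 UMIs) showed Cd34 in 30.3%, Podxl in 9.09%, Emcn in 12.1%, Cd300lg in 24.2% and Cd164 in 24.2%. Fibroblasts and some leukocytes can make CD34, and Cd164 is made by many cell types, so these clusters are no clean measure of free RNA. How much free RNA adds to the low shares, such as that of Cd34 in LEC or Podxl in HEC, was not tested. In Ptx3/Mrc1 cells Emcn was found in 0 of 277 cells, which allows a share of up to 1.08% of cells with a UMI, for counting error only.

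**Figure D2:**
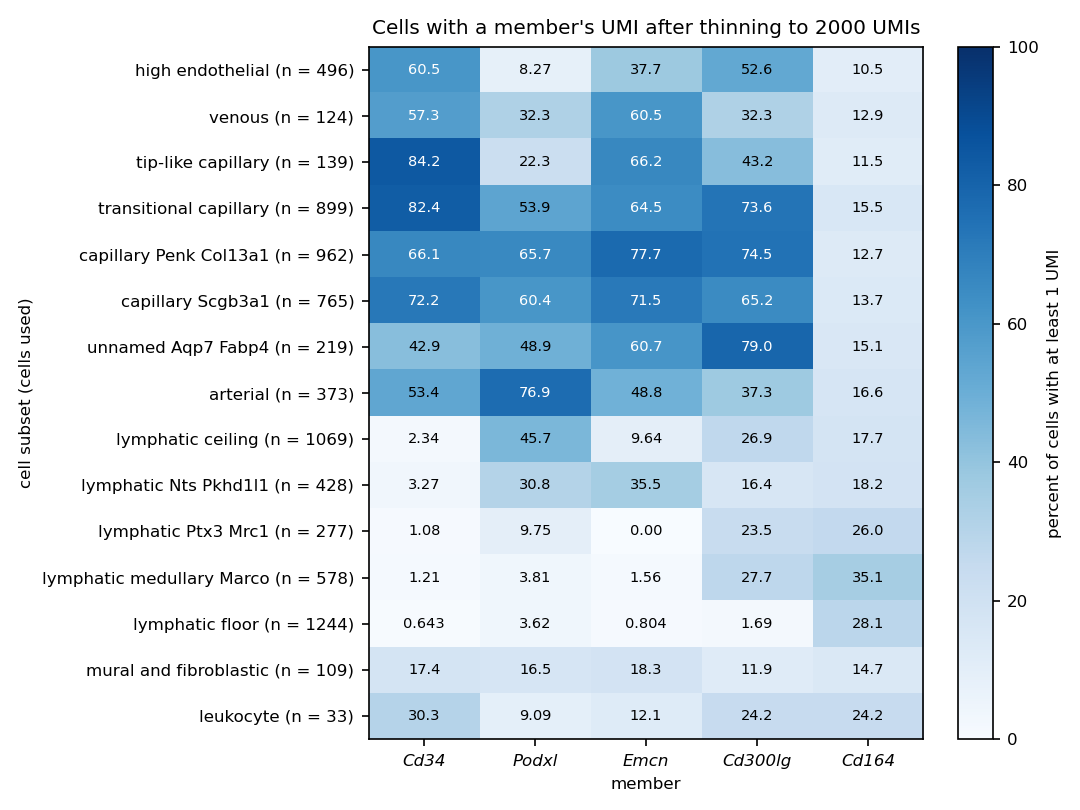
Percent of cells with at least 1 UMI of each member after every cell was thinned to 2000 UMIs, by subset, with the number of cells used in brackets. Among blood subsets, Cd34, Emcn and Cd300lg were each detected in 32.3% (Cd300lg in venous cells) to 84.2% of cells (Cd34 in tip-like cells). Podxl was found in 8.27% of high endothelial-like, 22.3% of tip-like and 45.7% of ceiling cells, and Emcn in 35.5% of Nts/Pkhd1l1 cells.

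Over the 13 subsets, whose points share the 2 libraries, the log levels of Cd34 and Emcn ran together most closely (r = 0.90), and Cd34 and Cd164 ran opposite (r = -0.90). Within the 8 blood subsets alone, r fell to 0.29 between Cd34 and Emcn and to -0.04 between Cd34 and Podxl. Between Cd34 and Cd164 it was -0.49 there. Podxl and Emcn had r = 0.58 there. Of 6417 genes, those most like Cd34 over the 13 subsets were Atp8b1 (r = 0.98), Esam and Sparcl1. Those most like Podxl were Slc9a3r2 (r = 0.95), Caskin2 and Dennd3, and for Emcn they were Plp2 (r = 0.96), Bcam and Cdc42ep3. The nearest to Cd300lg were Ushbp1 (r = 0.95), Cyp2d22 and Egfl7, and to Cd164 Man2a1 (r = 0.96), Atp2b1 and Dynll2. Slc9a3r2, an adaptor, is one of 6 tail partners of CD34 and podocalyxin listed for the comparisons that follow.

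The comparison of Xbp1-KO with WT asks whether loss of this secretory regulator altered the scaffolds. No member passed the test in any class. Sums of the counts of each class, 1 per library and pool, were tested with edgeR's quasi-likelihood test, with Benjamini-Hochberg adjustment over all genes kept by the filter; fold changes are log2 differences of TMM-scaled counts, each averaged over both tissues. Counts of pairs are of the CPM in each pool, and the count after TMM scaling is added where it differs for a member given here. In HEC 0% of 6119 genes were called, in other BEC 0% of 9973 and in LEC 0% of 10670, although 189, 235 and 646 genes had an unadjusted p under 0.05. DESeq2's Wald test called 0, 3 and 11 genes in the same order. With the library as a block, 0%, 0.160% and 0.918% of genes were called, no member among them. In these fits Xbp1 itself differed by -0.64 ± 0.23 in HEC, -0.80 ± 0.13 in other BEC and -1.04 ± 0.16 in LEC (log2 ± SE), and did not pass in any of them. In HEC it was -0.28 at a Leiden resolution of 2, -0.37 with at most 5% of mitochondrial UMIs and -0.38 with the ratio rule for hashtags. It was -0.45 there without the 2 sums low in high endothelial markers and -0.75 to -0.57 under the other alternatives. Under none of these did Xbp1 pass in HEC. It passed with the block in other BEC and LEC (edgeR adjusted p = 0.00078 and 0.00083). In both it also passed with no filter on low counts and without library 2, and in other BEC without library 1 and with DESeq2's Wald test.

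HEC resemble the cells in which such scaffolds can carry L-selectin ligands. In mesenteric HEC, Cd34 had 481 and 514 CPM in WT and 427 and 522 in Xbp1-KO pools (library 1, library 2). In peripheral HEC it had 724 and 598 CPM in WT and 420 and 668 in Xbp1-KO pools. The genotypes overlapped, and the fitted log2 difference was -0.15 ± 0.20 (SE), lower in 2 of 4 pairs by CPM and in 3 of 4 after TMM scaling. Emcn and Cd300lg differed by 0.10 ± 0.24 and -0.15 ± 0.26, and Cd164 by -0.15 ± 0.27, with all 3 far from the threshold (edgeR adjusted p = 0.9999).

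Podxl in HEC stood at 37.2 and 39.8 CPM in WT mesenteric, 36.8 and 21.3 in Xbp1-KO mesenteric, 114 and 84.3 in WT peripheral and 28.7 and 78.5 in Xbp1-KO peripheral pools. Xbp1-KO held the lower CPM in all 4 pairs and the lower TMM-scaled value in 3, but the groups overlapped and the log2 difference of -0.70 ± 0.33 did not pass (edgeR adjusted p = 0.9999), with -0.78 to -0.41 when a library was left out.

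In other BEC, the 5 log2 differences lay between -0.10 ± 0.13 (Cd34) and 0.05 ± 0.14 (Cd300lg). Podxl and Emcn were at 0.01 ± 0.13 and 0.01 ± 0.16, and Cd164 at -0.06 ± 0.13. In LEC, all 4 pairs had less Podxl in Xbp1-KO, at 144 and 154 CPM in WT mesenteric against 118 and 117, and at 151 and 176 in WT peripheral against 145 and 158. The log2 difference, -0.24 ± 0.11, did not pass (edgeR adjusted p = 0.81). Cd164 in LEC was the higher in 4 of 4 pairs at 0.18 ± 0.13 (edgeR adjusted p = 0.87), Cd34 differed by 0.23 ± 0.25 and Cd300lg by -0.12 ± 0.16.

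For Emcn in LEC, Xbp1-KO held the lower level in each of the 4 pairs, with a log2 difference of -0.56 ± 0.32 that did not pass (edgeR adjusted p = 0.84). It was called only when library 1 was left out (-0.93, edgeR adjusted p = 0.011), and stood at -0.28 when library 2 was left out; within a single library, genotype and sex cannot be told apart. The WT mesenteric pools held 53.6 and 199 CPM, and the second of these came from 64 cells, of which 37.5% were Nts/Pkhd1l1 cells, the lymphatic subset richest in Emcn; in the other 7 sums that share was 8.42% to 20.8%. Within Nts/Pkhd1l1 cells the genotype difference of Emcn was -0.15 ± 0.28. Whether the share of that subset accounts for the class value was not tested.

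The genotype difference was also compared between peripheral and mesenteric nodes. None of the 15 member tests of this interaction was called (0% of genes called in each class, with 191 genes in HEC, 180 in other BEC and 310 in LEC at an unadjusted p under 0.05; DESeq2's Wald test called 0, 0 and 2 genes, and edgeR with the library as a block 0% of genes in HEC, 0.0201% in other BEC and 0.141% in LEC, no member among the latter).

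**Figure D3:**
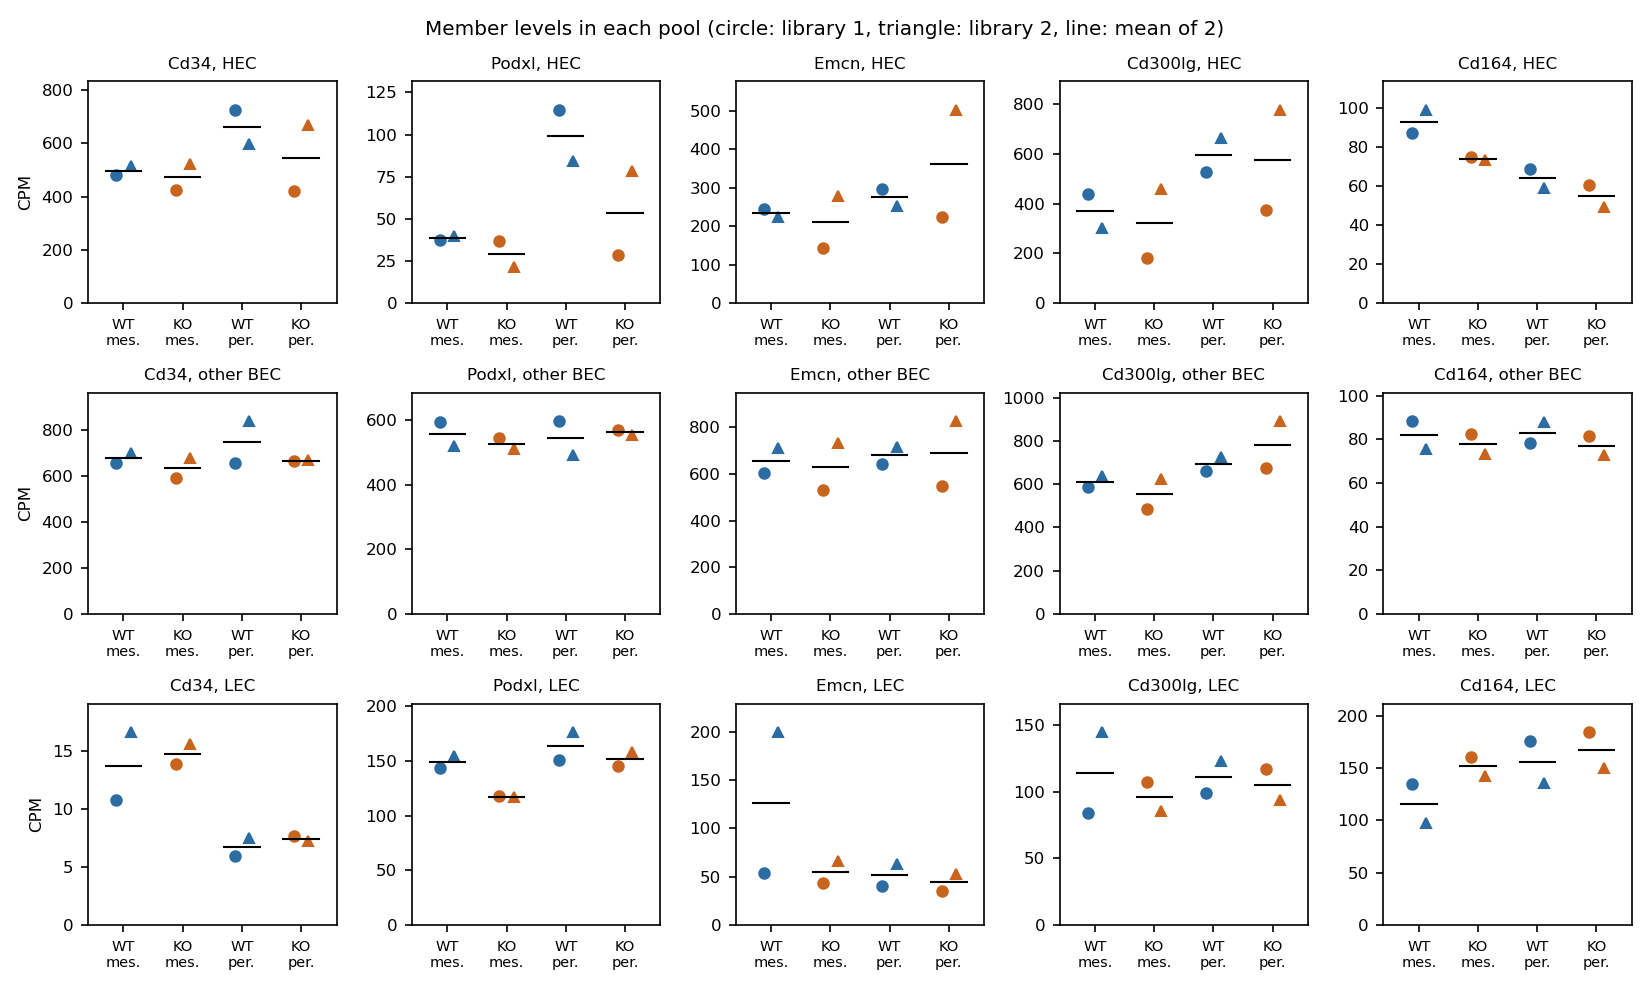
CPM of each member in high endothelial-like (HEC), other blood endothelial-like (other BEC) and lymphatic-like (LEC) cells of each pool; circles are library 1, triangles library 2, lines the mean of the 2, blue WT and orange Xbp1-KO, for mesenteric (mes.) and peripheral (per.) nodes. Genotypes overlap in most panels, while Cd34 in LEC is lower in all 4 peripheral sums (5.99 to 7.64 CPM) than in all 4 mesenteric ones (10.8 to 16.6 CPM).

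Peripheral and mesenteric nodes differ in their venular addressins, mucosal addressin (Madcam1) being typical of mesenteric nodes, so the scaffolds were compared between them over both genotypes. Of the 15 member tests 1 passed, Cd34 in LEC, which was lower in peripheral nodes. Across all genes, edgeR called 5.0% of genes in LEC, 0.922% in other BEC and 0.882% in HEC. With the library as a block the shares were 13.0%, 4.99% and 1.81%, and 3 of the 15 member tests passed: Cd34 in LEC, Emcn in LEC and Cd300lg in other BEC. The subsets that make up the classes differed between the tissues. Penk/Col13a1 capillaries were 34.7% to 47.2% of other BEC in peripheral pools and 4.29% to 8.05% in mesenteric ones, and Scgb3a1 capillaries 4.44% to 10.8% against 27.5% to 57.2%. Ceiling cells were 30.3% to 45.2% of peripheral and 14.3% to 22.3% of mesenteric LEC, and Nts/Pkhd1l1 cells 8.42% to 13.7% against 10.9% to 37.5%. From a class value alone, a change in the share of a subset and a change of RNA per cell cannot be told apart. Fits within 5 of the subsets are given below.

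Cd34 in LEC stood at 10.8 and 16.6 CPM in WT mesenteric, 13.9 and 15.6 in Xbp1-KO mesenteric, 5.99 and 7.51 in WT peripheral and 7.64 and 7.21 in Xbp1-KO peripheral pools. All 4 peripheral sums lay below all 4 mesenteric ones. The log2 difference was -1.03 ± 0.25, a 2.04-fold lower level, with an adjusted p of 0.031 by edgeR, and the lower value was in the peripheral pool in 4 of 4 pairs. The call rests on few molecules, 7 to 50 Cd34 UMIs per sum. It was lost when library 1 was left out (-1.18, edgeR adjusted p = 0.31) or library 2 was (-0.94, edgeR adjusted p = 0.070). It was also lost with DESeq2's Wald test (-1.06, adjusted p = 0.14), with the ratio rule for hashtags (-0.78, edgeR adjusted p = 0.13) and without the removal of predicted doublets (-0.56, edgeR adjusted p = 0.27). Some marker lists that name other cells also ran lower in peripheral LEC. The 5 blood endothelial markers, all detected in every LEC sum, added up to 1115 to 1399 CPM in peripheral and 1435 to 1575 in mesenteric LEC. The 7 high endothelial markers (4 to 6 detected per sum) added up to 1260 to 3464 against 3364 to 6892 CPM, with overlap. Glycam1 among them is also in the marker set of lymphatic floor cells. The 6 mural markers (3 to 6 detected) added up to 93.3 to 121.3 against 121.0 to 255 CPM, also with overlap. The 5 fibroblastic markers (1 to 4 detected) went the other way, at 75.0 to 84.0 against 19.7 to 43.2 CPM. The platelet markers overlapped between tissues, at 207 to 360 against 138 to 354 CPM, as did the leukocyte and erythroid markers. The part of any of these lists in the result was not tested.

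Emcn in LEC was lower in the peripheral pool in 4 of 4 pairs, at 53.6 and 199 CPM in WT mesenteric against 40.8 and 63.5 in WT peripheral, and at 43.9 and 66.1 in Xbp1-KO mesenteric against 35.6 and 52.4 in Xbp1-KO peripheral pools. The sums of the tissues overlapped between libraries. The log2 difference was -0.81 ± 0.32 (edgeR adjusted p = 0.18), and with the library as a block it was -0.66 ± 0.17 and passed (edgeR adjusted p = 0.011); with no filter on low counts it was -0.77 and also passed (edgeR adjusted p = 3.9e-05). It stood at -1.03 without library 1 (edgeR adjusted p = 0.00037) and -0.45 without library 2, the latter not called (edgeR adjusted p = 0.074). Within Nts/Pkhd1l1 cells, the richest in Emcn, the difference was -0.21 ± 0.28, lower in 2 of 4 pairs by CPM and in 3 of 4 after TMM scaling, and turned to 0.32 without library 2.

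Cd300lg stood higher in peripheral blood endothelium in every pair. In other BEC it had 585 and 639 CPM in WT mesenteric against 659 and 726 in WT peripheral, and 484 and 622 in Xbp1-KO mesenteric against 675 and 890 in Xbp1-KO peripheral pools. All 4 peripheral sums lay above all 4 mesenteric ones. The log2 difference was 0.33 ± 0.14, a 1.26-fold higher level, which did not pass (edgeR adjusted p = 0.52) but passed with the library as a block (0.33 ± 0.07, edgeR adjusted p = 0.016). With a single library the value was 0.32 (library 1, edgeR adjusted p = 0.041) or 0.34 (library 2, edgeR adjusted p = 0.12).

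In HEC, the difference of Cd300lg did not pass. It had 440 and 304 CPM in WT mesenteric against 526 and 666 in WT peripheral, and 183 and 461 against 376 and 776 in Xbp1-KO. The log2 difference there was 0.72 ± 0.26, higher in 4 of 4 pairs (edgeR adjusted p = 0.30), and it passed when library 1 was left out (0.92, edgeR adjusted p = 0.028) but was 0.24 at a Leiden resolution of 2 (edgeR adjusted p = 0.86). The tissues overlapped, and HEC numbered 15 to 52 cells per peripheral sum and 56 to 130 per mesenteric sum. The blood endothelial markers added up to 2799 to 5507 CPM in peripheral and 2468 to 4211 in mesenteric HEC. Without the 2 peripheral sums low in high endothelial markers the difference was 0.62 ± 0.31 (edgeR adjusted p = 0.61). The part of the blood endothelial markers in the result was not tested.

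Podxl in HEC had a log2 difference of 0.94 ± 0.34 between peripheral and mesenteric pools, higher in 3 of 4 pairs (edgeR adjusted p = 0.28). It was 0.59 ± 0.42 without the 2 sums low in high endothelial markers. It ran from 0.62 to 1.41 when a library was left out. The direction turned at a Leiden resolution of 2 (-0.95), where the Xbp1-KO peripheral sum of library 2 fell to 2 cells and dropped out of the fit, and with at most 5% of mitochondrial UMIs (-0.70), where that sum held 7 cells. Emcn and Cd34 in HEC differed by 0.44 ± 0.24 and 0.25 ± 0.20 (0.18 and 0.11 without those 2 sums), and Cd164 by -0.45 ± 0.27, lower in 4 of 4 pairs; none passed, and Cd34 turned to -0.25 at resolution 2. In other BEC, Cd34, Podxl, Emcn and Cd164 lay between -0.02 ± 0.13 and 0.09 ± 0.13. In LEC, Podxl and Cd164 were the higher in peripheral pools in 4 of 4 pairs, at 0.17 ± 0.11 and 0.18 ± 0.13, and Cd300lg was at 0.03 ± 0.16; none passed. For Podxl the count was 3 of 4 pairs on the TMM scale, and the difference ran from 0.075 to 0.26 when a library was left out.

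**Figure D4:**
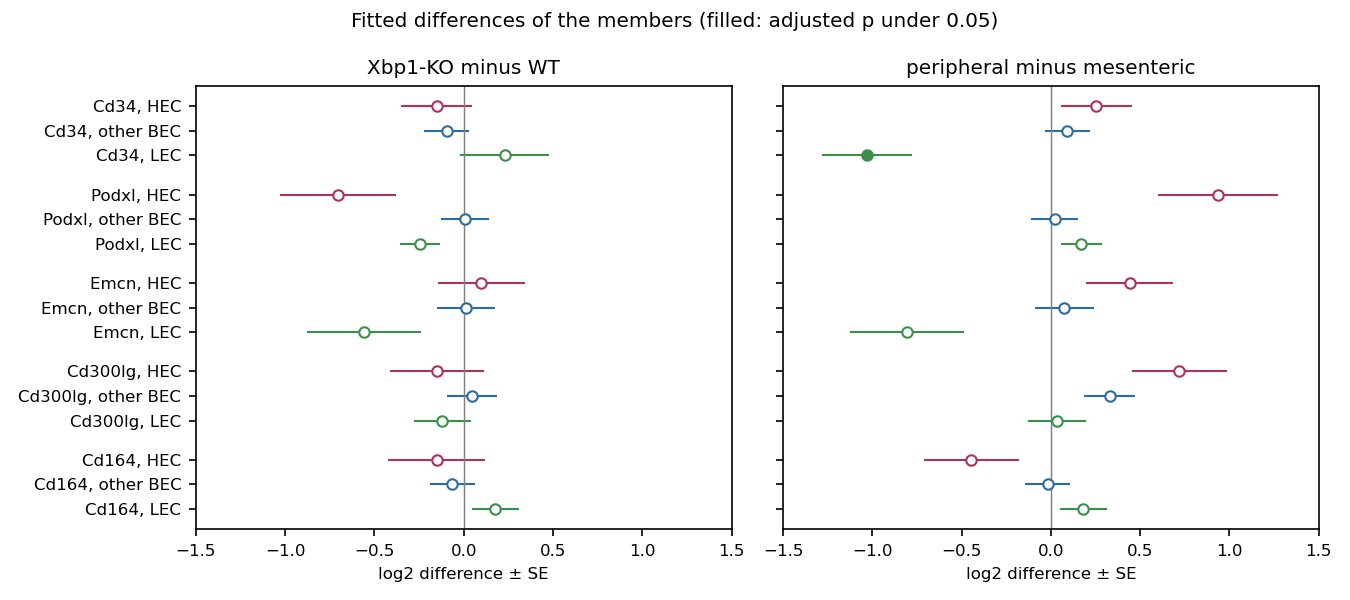
Log2 difference of each member, with its SE, from edgeR on 8 sums per class: left Xbp1-KO minus WT, right peripheral minus mesenteric, for high endothelial-like (HEC), other blood endothelial-like (other BEC) and lymphatic-like (LEC) cells. Filled points have an adjusted p under 0.05, which holds for Cd34 in LEC between tissues only (-1.03 ± 0.25).

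The comparisons were repeated within the 5 subsets that had at least 20 cells in all 8 sums: arterial, Scgb3a1 and transitional capillary, the Aqp7/Fabp4 cluster and Nts/Pkhd1l1 cells. Cd34 was too low to be tested in the last, so the genotype, tissue and interaction contrasts had 24 member tests each. None passed between genotypes, where 0% of genes were called in each subset, with 0 of the 24 at an unadjusted p under 0.05. None passed between tissues either, where 0.0763% of genes were called in arterial cells, 2.01% in Scgb3a1 capillaries, 1.17% in transitional capillaries, 0.0963% in the Aqp7/Fabp4 cluster and 0.562% in Nts/Pkhd1l1 cells, with 2 of the 24 at an unadjusted p under 0.05. When the library was added as a block, 1.02%, 4.66%, 3.15%, 0.819% and 1.98% of genes were called between tissues and 0.0254%, 0.121%, 0.303%, 0% and 0.0267% between genotypes, in the same order of subsets, again with no member among them. The 2 tissue tests with an unadjusted p under 0.05 were Cd34 in the Aqp7/Fabp4 cluster (-0.81 ± 0.26, lower in peripheral nodes in 4 of 4 pairs, edgeR adjusted p = 0.45) and Cd300lg in arterial cells (0.59 ± 0.23, higher in 3 of 4 pairs, edgeR adjusted p = 0.92), singled out after their values were seen. With the block, that Cd34 difference was -1.32 ± 0.32 in WT and -0.36 ± 0.28 in Xbp1-KO, and neither passed. The Cd300lg value averages unlike genotypes: in arterial cells the tissue difference of Cd300lg was 1.30 ± 0.33 in Xbp1-KO (edgeR adjusted p = 0.24, 0.127% of genes called) and -0.12 ± 0.32 in WT (edgeR adjusted p = 0.9997, 0.0254% called). With the block the former was 1.30 ± 0.26 and passed (edgeR adjusted p = 0.0011, 0.763% of genes called). Its interaction, 1.43 ± 0.46 (edgeR adjusted p = 0.9994), was the only one of 24 in these subsets with an unadjusted p under 0.05, and none passed. For this contrast 0.102% of genes were called in arterial cells and 0% in each of the other 4 subsets, and with the block 0.534% in arterial cells, 0.337% in the Aqp7/Fabp4 cluster, 0.107% in Nts/Pkhd1l1 cells and 0% in both capillary subsets, no member among them. Cd300lg, higher in peripheral other BEC as a class, differed by 0.18 ± 0.19 in Scgb3a1 capillaries, 0.11 ± 0.16 in transitional capillaries and -0.16 ± 0.20 in the Aqp7/Fabp4 cluster.

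Other genes of the ligand were taken from 3 lists: 7 further scaffolds and sialomucins, 22 enzymes and transporters that build the sulfated sialyl Lewis X glycan, and 6 tail partners of CD34 and podocalyxin. Between genotypes no gene of any list was called in any class. The median log2 difference of the 16 enzymes tested in HEC was -0.11, against 0.02 over all genes, that of 20 in other BEC 0.12 against 0.00, and that of 19 in LEC 0.05 against 0.01. The medians of the further scaffolds were -0.06 (2 tested), 0.27 (2) and 0.03 (3), and those of the tail partners 0.04 (3 tested), 0.02 (6) and -0.07 (6), in the same order. Between tissues, Madcam1 was lower in peripheral HEC (fitted log2 difference -7.10 ± 0.48, edgeR adjusted p = 3.0e-07), the only call among the 2 further scaffolds tested there. Madcam1 is itself a high endothelial marker, and 2 of the peripheral HEC sums were low in those markers. Its difference without those 2 sums is not given here. In LEC, 2 of 3 further scaffolds were lower in peripheral nodes, Madcam1 (-1.18 ± 0.17, edgeR adjusted p = 0.0012) and Glycam1 (-1.36 ± 0.28, edgeR adjusted p = 0.013). Both are among the 7 high endothelial markers, so the sum of those markers in LEC contains them. That sum was 1260 to 3464 CPM in peripheral and 3364 to 6892 CPM in mesenteric pools. Glycam1 is also in the marker set of lymphatic floor cells. Whether the RNA of these genes in LEC sums came from lymphatic or from other cells was not tested. The median of the further scaffolds was -1.18 over 3 genes in LEC. In HEC and other BEC it is only the midpoint of 2 genes, at -3.54 and -0.85, and in HEC it was drawn down by Madcam1. In other BEC none of the 2 was called. Over all genes, 5.0% were called in LEC. Of the 19 enzymes tested there 1 was called, a share close to that background: Papss2, which makes the sulfate donor of sulfotransferases, lower in peripheral LEC (-0.92 ± 0.20, edgeR adjusted p = 0.017), with a median of 0.03 over the list against 0.01 over all genes. No enzyme was called in HEC or other BEC, with medians of -0.36 and 0.07. None of the tail partners was called, with medians of 0.37 over 3 in HEC, -0.03 over 6 in other BEC and 0.24 over 6 in LEC, against -0.05, 0.00 and 0.01 over all genes.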

How the data were processed

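The deposited values are raw counts of UMIs per gene, hashtag and cell barcode, whole numbers from Cell Ranger, version 6.0.1 per the file headers, while the submitters' processing notes name Cell Ranger 6.1 and the build mm10. The annotation and the use of intronic reads are not given in the sources used here. The labels' protocols name a version 2 kit and the design text version 3 chemistry. Gene positions came from GENCODE M21. The 5 members, the gene lists and the tests were chosen with earlier results of these data known.

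Each library's hashtags were assigned by HTODemux (Seurat 5.3.0, positive quantile 0.99). Barcodes stayed in if they had 1 tag, 500 or more genes and no more than 10% mitochondrial UMIs, and Scrublet removed 65 predicted doublets in library 1 and 4 in library 2; it marked 25.5% and 4.62% of the barcodes with several tags, so doublets within a pool largely remain. The 2000 most variable genes, without the members, Xbp1 and 6 sex-linked genes (1998 left), were clustered in scanpy 1.11.5 (30 components, 15 neighbours, Leiden resolution 1). A cluster was named from at least 3 detected markers; Prox1 in at least 25% of cells set lymphatic clusters apart, and an unnamed cluster was classed from Prox1, pan-endothelial and leukocyte markers.

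Class sums, 1 per library and pool, were tested with edgeR 4.0.16 (TMM, filterByExpr, quasi-likelihood F-test, 4 group means, adjusted p under 0.05); DESeq2 1.42.0 was an alternative. A sum needed 5 cells for a test and 10 for a level. The fits were tested on simulated data. All members passed the low-count filter in the 3 classes. Pools of the same library share a droplet run, which is the pairing behind the library block: their deviations from group means correlated at 0.16 to 0.42 in other BEC, 0.055 to 0.23 in LEC and 0.0065 to 0.25 in HEC. In each class the 2 highest correlations were between peripheral and mesenteric pools of 1 genotype (0.21 to 0.42), which also share a sex, so the tissue pools are paired by library and genotype together. No fit used that pairing, since the block holds the library alone. Named genes were all members, Xbp1, at most 3 called genes per list and comparison, and the 3 genes most correlated with each member over the subsets.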

Additional observations from a re-analysis of the deposited data

Results flagged for a closer look

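Of 75 sets of 4 to 8 library and pool sums, each for 1 member in 1 class or subset, 9 held a sum whose gap to its nearest neighbour was large for the range of the set. For independent sets of normally spread values, chance alone would flag about 1 set in 20. These sets share cells between classes and subsets, some hold few UMIs, and each mixes genotypes and tissues. Emcn accounted for 6 of the 9. In LEC the WT mesenteric sum of library 2 stood at 199 CPM against 66.1 for the next, and in ceiling cells the same pool stood at 197 CPM, from 19 UMIs in 13 cells, against 94.9. In the Aqp7/Fabp4 cluster it was again that pool, at 865 CPM against 603. In high endothelial-like cells the Xbp1-KO peripheral sum of library 2 reached 501 CPM against 297, from 51 UMIs in 16 cells. In floor cells the Xbp1-KO mesenteric sum of library 1 reached 21.5 CPM from 6 UMIs, and in Ptx3/Mrc1 cells the Xbp1-KO peripheral sum of library 1 stood at 1.88 CPM from 1 UMI while the other 6 sums were at 0. For the other members, Cd34 in other BEC was highest in WT peripheral cells of library 2 (839 CPM against 701), Cd300lg in Scgb3a1 capillaries in Xbp1-KO peripheral cells of library 2 (956 against 712), and Podxl in Nts/Pkhd1l1 cells in Xbp1-KO mesenteric cells of library 2 (430 against 291).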

How the results depend on the processing

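Counts of called genes moved by over 1.5 times under several alternatives. With the library as a block (replicate block), 111 genes were called between tissues in HEC, 498 in other BEC and 1387 in LEC, 16 and 98 between genotypes in other BEC and LEC, and 2 and 15 for the interaction there; this block changed the calls of Emcn in LEC and Cd300lg in other BEC between tissues and of Xbp1, and no other call of a member in a class for these 3 contrasts. Within arterial, Scgb3a1 and transitional capillary, Aqp7/Fabp4 and Nts/Pkhd1l1 cells, in that order, the block gave 40, 192, 156, 17 and 74 genes between tissues against 3, 83, 58, 2 and 21 without it, 1, 5, 15, 0 and 1 between genotypes against 0 in each, and 21, 0, 0, 7 and 4 for the interaction against 4 in arterial cells and 0 elsewhere. Without library 1 the tissue counts there were 13, 13, 71, 0 and 13 and without library 2 0, 44, 150, 0 and 44, and the genotype counts 5, 1, 24, 0 and 1, and 1, 1, 20, 1 and 5; no member was among those called in these subsets for these contrasts. With no filter on low counts, the tissue counts were 174, 331 and 880, the genotype counts 2, 29 and 70, and the interaction counts 2, 13 and 25 (HEC, other BEC, LEC). DESeq2's Wald test gave 3 and 11 between genotypes in other BEC and LEC, 351 between tissues and 2 for the interaction in LEC. In HEC the tissue count was 13 at Leiden resolution 2, 9 with at most 5% mitochondrial UMIs, 21 without Scrublet, 17 with the ratio rule and 20 without the 2 sums low in high endothelial markers (added after seeing the data), and the interaction count 1 at resolution 2. Leaving out each library in turn gave 21 to 30, 40 to 42 and 35 to 76 genes between genotypes and 66 to 106, 156 to 449 and 228 to 1273 between tissues; these fits hold 4 sums with 1 sample per group, whose spread is taken from an additive model, and give no interaction, and within 1 library genotype and sex cannot be told apart.

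Directions turned only for member differences that had not been called. Between genotypes in HEC, Emcn turned to -0.050, Cd300lg to 0.010 and Cd164 to 0.32 at resolution 2, Cd300lg to 0.13 and Cd164 to 0.10 at 5% mitochondrial UMIs, and Cd164 to 0.030 without Scrublet and 0.11 with the ratio rule. Without the 2 sums low in high endothelial markers, Emcn turned to -0.038 and Cd164 to 0.0059. In other BEC, Podxl turned to -0.00020 with DESeq2, -0.0043 at resolution 2 and -0.028 with the ratio rule, and Emcn to -0.013 with the block. Between tissues, Cd34 and Podxl in HEC turned to -0.25 and -0.95 at resolution 2, Podxl to -0.70 at 5% mitochondrial UMIs, and Cd300lg in LEC to -0.0038 with DESeq2. The cause was not tested. Leaving out each library spanned 0 between genotypes for Emcn (-0.40 to 0.39), Cd300lg (-0.69 to 0.28) and Cd164 (-0.55 to 0.0013) in HEC, Podxl (-0.095 to 0.13), Emcn (-0.20 to 0.19) and Cd300lg (-0.11 to 0.19) in other BEC, and Cd34 (-0.082 to 0.30) and Cd300lg (-0.56 to 0.22) in LEC. Between tissues it did so for Cd164 in other BEC (-0.10 to 0.051), Cd300lg in LEC (-0.090 to 0.10) and Emcn in Nts/Pkhd1l1 cells (-0.57 to 0.32).

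In all, 236 alternative values for levels moved by less than the SD over sums and 9 by more. TMM scaling, added after seeing the data, put Podxl in LEC at 125 CPM. Leaving out a library, which can leave 1 sum of tip-like or venous cells, gave 961 to 1100 CPM for Cd34, 97.5 to 147 for Podxl, 506 to 613 for Emcn and 261 to 376 for Cd300lg in tip-like cells, and 382 to 719 for Cd34, 133 to 216 for Podxl, 172 to 270 for Cd300lg and 70.3 to 105 for Cd164 in venous cells. At 1000 instead of 2000 UMIs per cell, the shares of cells with a UMI in HEC were 36.6% for Cd34, 22.2% for Emcn and 29.3% for Cd300lg. In other BEC they were 44.6% for Cd34, 39.8% for Podxl, 44.9% for Emcn, 44.2% for Cd300lg and 7.59% for Cd164, and in LEC 11.98% for Podxl, 9.89% for Cd300lg and 14.3% for Cd164. HEC numbered 15 to 130 cells per sum, and which size of change could be detected there is not given here.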
